A study of Mus musculus with 2 samples.

Results

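The genes described are Parp8, Parp9, Parp10, Parp11, Parp12, Parp14 and Dtx3l. All but Dtx3l belong to the poly(ADP-ribose) polymerase (PARP) family and were taken as a set under the name interferon-linked. Dtx3l is the ubiquitin ligase that pairs with Parp9. The name is not a result for each gene, and another gene of the family, Zc3hav1, is counted below with the other PARP genes. The 7 genes were chosen by symbol, with earlier results of these data known, and all were found among the 28692 genes of the count matrices. They were compared between subcutaneous A20 tumours of Balb/c mice 8 h after an intravenous dose of 7.5 mg/kg TAK-981 (TAK-981-001-J), an inhibitor of the enzyme that activates the small modifier protein SUMO, and A20 tumours of mice given the vehicle, 20% HPbCD, a cyclodextrin. A20 is a B cell lymphoma line from a Balb/c mouse, and 1000000 cells were inoculated per mouse, with dosing at tumours of about 300 mm3. Each arm is 1 droplet library of the dissociated tumour after removal of dead cells, and how many mice stand behind a library is not stated in the labels. With 1 library per arm there is no replicate check and no test: every interval given is a 95% interval that covers counting error only, and a difference between the arms cannot be told apart from a difference between these 2 libraries.

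PARP enzymes take ADP-ribose from NAD and attach it to other molecules, as single units or as chains. Parp1 and the tankyrases build chains, whereas the PARP enzymes described here attach single units or, for Parp9, have little activity outside the complex with Dtx3l. Interferons act through a receptor, kinases of the JAK family and a transcription factor complex, with Stat2 and Irf9 among its members, that raises transcription of antiviral genes, and several PARP genes are among its known targets in human and mouse cells. Viral macrodomains that strip ADP-ribose from proteins are a known counter-measure.

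The TAK-981 library held 2396 barcodes with a median of 11840.5 unique molecular identifiers (UMIs, each standing for 1 captured RNA molecule), and the vehicle library held 2579 with a median of 19608. Mitochondrial genes took 10% or more of the UMIs in 15.7% of TAK-981 barcodes and 4.81% of vehicle barcodes, and these barcodes were left out. T cells, with at least 2 UMIs of Cd3d, Cd3e and Cd3g together, numbered 45 with TAK-981 and 60 with vehicle, with median depths of 7156 and 9068 UMIs. Myeloid cells, with at least 5 UMIs of the lysozyme gene Lyz2, numbered 39 and 44, with medians of 8287 and 10636.5. A20 cells, with at least 1 UMI of Cd79a and none of the Cd3 genes or Lyz2, numbered 1754 and 2191, with medians of 16195 and 22309. Xist, the RNA of the inactive X chromosome, was seen in 38 of 45 and 54 of 60 T cells, in 30 of 39 and 39 of 44 myeloid cells, and in 9 of 1754 and 22 of 2191 A20 cells. The T gate carried Trac in 30 and 45 cells, the myeloid gate Cd14 in 36 and 41 cells, and the A20 gate Cd79b in 1568 and 2035 cells. Most cells of each gate thus held this further marker of its class. Some other markers were rarer, such as Adgre1 in 11 and 24 myeloid cells. B cell markers were also found in T and myeloid cells, as given below. The libraries shared 11 barcode sequences, and all 11 were A20 cells in the TAK-981 library. In all, 182 TAK-981 and 160 vehicle cells met none of the gates.

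The start regions of several of the genes are shown because most of the 7 genes were 2-fold higher in both host classes, 5 of them with intervals above 0, and sites near the start of a gene are where transcription factors can bind. RefSeq windows from 250 bases before to 50 bases after the annotated start (build GRCm38.p6, gene strand, 5′ to 3′) were matched by symbol for Parp8, Parp11, Parp12 and Dtx3l; Parp9, Parp10 and Parp14 are named only. Capitals mark the core of an interferon-stimulated response element, searched on either strand as GAAA, 2 bases of any kind and GAAA again, with the interferon-gamma activated sequence, searched as TTCNNNGAA, which reads the same on both strands and overlaps it.
Dtx3l, chr16:35938978-35939277, minus strand: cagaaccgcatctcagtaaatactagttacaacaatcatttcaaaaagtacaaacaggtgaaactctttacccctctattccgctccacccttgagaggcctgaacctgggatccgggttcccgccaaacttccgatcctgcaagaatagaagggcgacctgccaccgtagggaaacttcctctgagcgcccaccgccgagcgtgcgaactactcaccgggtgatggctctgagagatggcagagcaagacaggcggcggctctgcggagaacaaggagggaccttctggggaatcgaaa
Parp12, chr6:39118300-39118599, minus strand: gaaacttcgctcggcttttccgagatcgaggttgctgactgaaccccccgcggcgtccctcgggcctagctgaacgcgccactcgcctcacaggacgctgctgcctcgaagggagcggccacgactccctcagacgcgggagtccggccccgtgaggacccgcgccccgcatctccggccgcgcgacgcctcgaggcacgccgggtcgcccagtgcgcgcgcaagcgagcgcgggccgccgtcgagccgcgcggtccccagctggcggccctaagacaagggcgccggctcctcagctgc
Parp11, upstream start, chr6:127446590-127446889, plus strand: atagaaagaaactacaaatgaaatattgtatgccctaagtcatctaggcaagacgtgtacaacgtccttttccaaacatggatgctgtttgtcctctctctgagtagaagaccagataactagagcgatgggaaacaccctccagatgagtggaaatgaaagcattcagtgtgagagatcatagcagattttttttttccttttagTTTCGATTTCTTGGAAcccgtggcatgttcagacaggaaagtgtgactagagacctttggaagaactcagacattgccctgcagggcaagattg
Parp8, chr13:117025482-117025781, minus strand: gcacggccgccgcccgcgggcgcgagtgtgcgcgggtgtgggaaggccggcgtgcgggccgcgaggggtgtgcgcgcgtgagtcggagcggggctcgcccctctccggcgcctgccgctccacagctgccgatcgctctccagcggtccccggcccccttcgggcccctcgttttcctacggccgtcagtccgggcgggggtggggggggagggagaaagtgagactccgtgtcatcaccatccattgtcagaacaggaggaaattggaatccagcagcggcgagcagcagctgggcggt
In the upstream Parp11 window the response element reads TTTCGATTTC and begins 44 bases before the annotated start. The other Parp11 window, chr6:127453377-127453676, and the Dtx3l, Parp12 and Parp8 windows hold neither motif. Of all 32851 windows in the table, 3.44% hold the response element and 8.30% hold TTCNNNGAA, and the match in 1 of 5 member windows describes these letters only. The Parp12 and Parp8 windows are rich in G and C, at 73.7% and 72.3%, while the Dtx3l window is at 54.3% and the upstream Parp11 window at 42.0%.

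In T cells and in myeloid cells, 6 of the 7 genes were at least 2-fold higher with TAK-981 than with vehicle, and Parp8 was not. In A20 cells only Parp14 passed that size among the 7. Among all genes with at least 1 UMI in each library, 8.53% were at least 2-fold higher in T cells, 12.9% in myeloid cells and 6.43% in A20 cells. The counting interval of the ratio lay above 0 for 5 of the 7 genes in T cells, 5 of 7 in myeloid cells and 6 of 7 in A20 cells, beside 6.03%, 7.87% and 24.3% of all such genes. Because the 7 genes were chosen with earlier results of these data known, these counts beside the shares are a description only. None of the 7 was 2-fold lower in any class. The median log2 ratio over the 7 genes was 1.88 in T cells, 2.66 in myeloid cells and 0.73 in A20 cells, and over all genes with at least 10 UMIs in the 2 libraries together it was -0.04, -0.09 and 0.06. All log2 ratios are TAK-981 over vehicle, of UMIs scaled to 1000000 UMIs of the class (CPM).

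**Figure D1:**
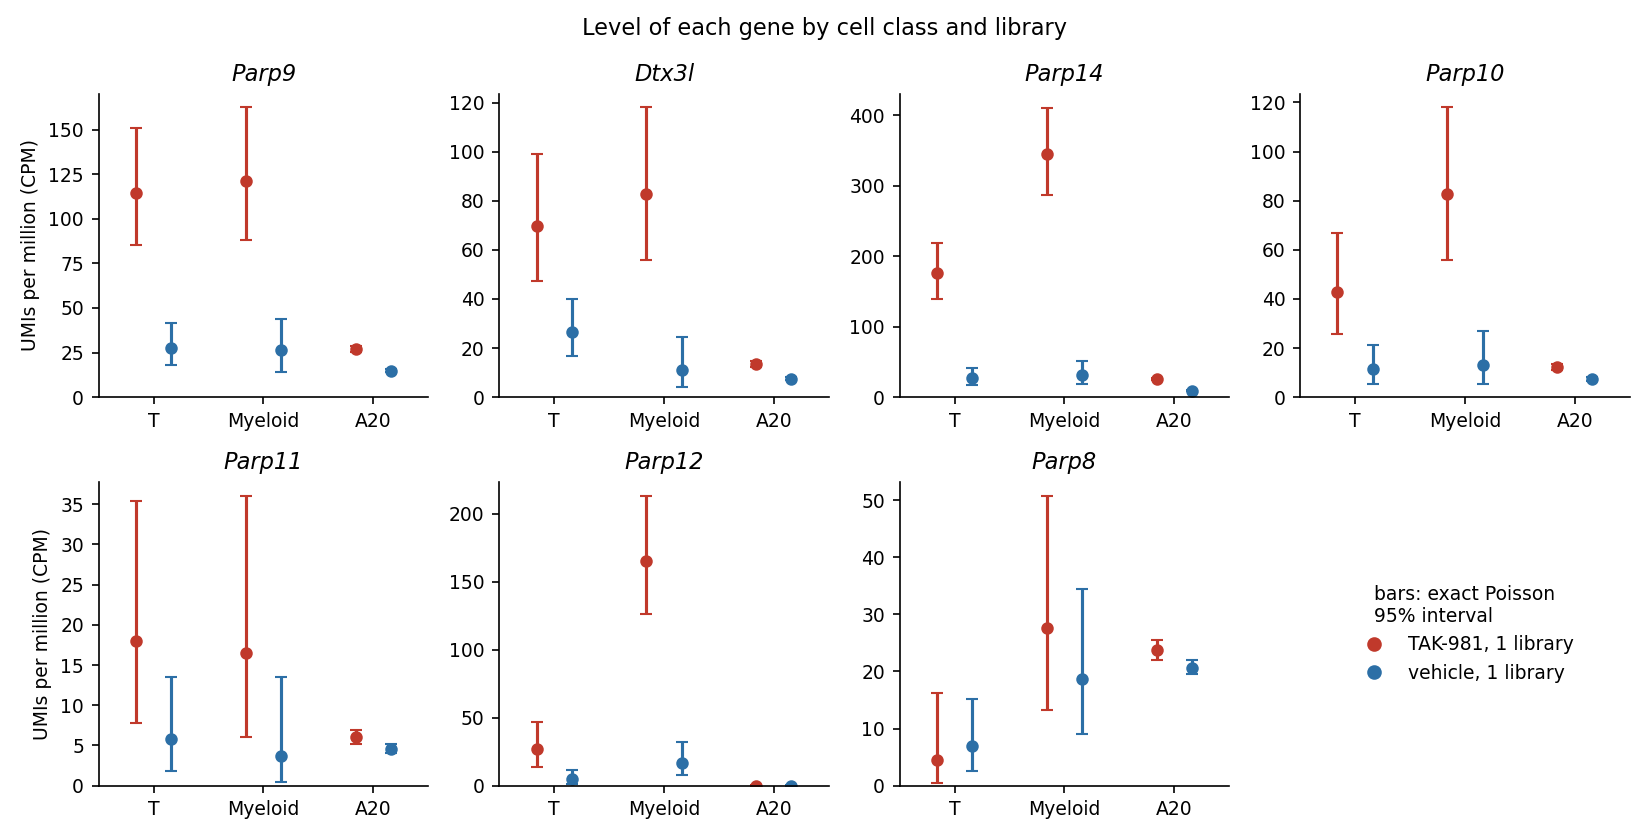
Level in CPM (vertical axis, linear, a scale of its own for each gene) of the 7 genes in T, myeloid and A20 cells, TAK-981 in red on the left and vehicle in blue on the right. Points are class sums of 1 library and bars are exact Poisson 95% intervals; Parp14 in myeloid cells stands at 344 CPM with TAK-981 and 31.8 CPM with vehicle.

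Parp9 and Dtx3l lie head to head on chromosome 16, and their proteins form a complex in which Dtx3l supplies the ubiquitin ligase. Parp9 had 51 UMIs (115 CPM) in TAK-981 T cells and 24 UMIs (27.8 CPM) in vehicle T cells, a log2 ratio of 2.04 (interval 1.32 to 2.81). In myeloid cells it had 44 UMIs (121 CPM) with TAK-981 and 14 UMIs (26.2 CPM) with vehicle, a log2 ratio of 2.21 (1.31 to 3.19). The TAK-981 and vehicle intervals of the level did not overlap in either host class. A single vehicle myeloid cell held 7 of those 14 UMIs, at a depth of 35322 UMIs; without the cell with most Parp9 UMIs in each library the log2 ratio was 3.01. In A20 cells Parp9 had 871 UMIs (26.8 CPM) with TAK-981 and 790 UMIs (14.9 CPM) with vehicle, a log2 ratio of 0.85 (0.71 to 0.99), under 2-fold; with cells drawn down to 1000 UMIs it was 1.42.

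Dtx3l also passed 2-fold in both host classes. In T cells it had 31 UMIs (69.7 CPM) with TAK-981 and 23 UMIs (26.7 CPM) with vehicle, a log2 ratio of 1.39 (0.56 to 2.23). Myeloid cells held 30 UMIs (82.7 CPM) with TAK-981 and 6 UMIs (11.2 CPM) with vehicle, a log2 ratio of 2.88 (1.59 to 4.43). The vehicle levels of Dtx3l, with intervals of 4.12 to 24.5 CPM in myeloid and 16.9 to 40.0 CPM in T cells, overlapped, and so did the TAK-981 levels of these classes. In A20 cells Dtx3l had 436 UMIs (13.4 CPM) with TAK-981 and 403 UMIs (7.60 CPM) with vehicle, a log2 ratio of 0.82 (0.62 to 1.02); with every cell drawn down to 4000 UMIs it was 1.12, past 2-fold.

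The number of Parp9 UMIs per Dtx3l UMI is a ratio of captured molecules at their 5′ ends and not of transcript amounts, but it can be compared between libraries. It was 2.00 (1.78 to 2.25) in TAK-981 A20 cells and 1.96 (1.74 to 2.22) in vehicle A20 cells, so the pair kept the same balance in the tumour cells within counting error. In T cells it was 1.65 (1.03 to 2.66) with TAK-981 and 1.04 (0.56 to 1.93) with vehicle, and in myeloid cells 1.47 (0.90 to 2.42) with TAK-981 and 2.33 (0.84 to 7.41) with vehicle; both pairs of intervals overlap. The annotated Parp9 and Dtx3l transcripts overlap on opposite strands, Parp9 also overlaps the antisense gene Gm15564, and whether counting used strand is not stated, so reads near the shared start cannot be told apart between the pair. UMIs of both genes were found in 12 of 45 TAK-981 and 8 of 60 vehicle T cells, in 17 of 39 TAK-981 and 1 of 44 vehicle myeloid cells, and in 154 of 1754 TAK-981 and 119 of 2191 vehicle A20 cells.

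Parp14, a large enzyme with macrodomains that is known in mouse B cells as a cofactor of Stat6, is the member with a ratio past 2-fold and an interval above 0 in every class. It had 78 UMIs (175 CPM) in TAK-981 T cells and 24 UMIs (27.8 CPM) in vehicle T cells, a log2 ratio of 2.66 (1.98 to 3.38). Myeloid cells held 125 UMIs (344 CPM) with TAK-981 and 17 UMIs (31.8 CPM) with vehicle, a log2 ratio of 3.44 (2.70 to 4.26). In A20 cells there were 843 UMIs (26.0 CPM) with TAK-981 and 474 UMIs (8.94 CPM) with vehicle, a log2 ratio of 1.54 (1.37 to 1.70). The order of the levels ran from TAK-981 myeloid through TAK-981 T cells, vehicle myeloid, vehicle T and TAK-981 A20 cells to vehicle A20 cells. Only the steps between vehicle myeloid and vehicle T cells and between vehicle T and TAK-981 A20 cells had overlapping intervals. UMIs of Parp14 were spread over cells: the cell with most held 13 of 125 UMIs in TAK-981 myeloid cells and 9 of 78 in TAK-981 T cells, and in A20 cells a single TAK-981 cell held 23.

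Parp10, a mono-ADP-ribosyltransferase that was described as a partner of the Myc protein, had 19 UMIs (42.7 CPM) in TAK-981 T cells and 10 UMIs (11.6 CPM) in vehicle T cells. The log2 ratio was 1.88 (0.71 to 3.15). In myeloid cells it had 30 UMIs (82.7 CPM) with TAK-981 and 7 UMIs (13.1 CPM) with vehicle, a log2 ratio of 2.66 (1.44 to 4.09). A20 cells held 398 UMIs (12.3 CPM) with TAK-981 and 393 UMIs (7.41 CPM) with vehicle, a log2 ratio of 0.73 (0.52 to 0.93). Each of the 6 levels overlapped the next in order, from TAK-981 myeloid and TAK-981 T cells down through vehicle myeloid, TAK-981 A20 and vehicle T cells to vehicle A20 cells. Parp10 overlaps its neighbour Plec on the same strand in the annotation. Plec, which codes for the cytolinker plectin, had log2 ratios of 0.00 in T, -0.24 in myeloid and 0.05 in A20 cells, all with intervals across 0.

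Parp11, a mono-ADP-ribosyltransferase reported in human cells to act on the turnover of the interferon receptor, was sparse in host cells. It had 8 UMIs (18.0 CPM) in TAK-981 T cells and 5 UMIs (5.80 CPM) in vehicle T cells, a log2 ratio of 1.63 (-0.16 to 3.59), and 6 UMIs (16.5 CPM) in TAK-981 myeloid cells against 2 UMIs (3.75 CPM) in vehicle myeloid cells, a log2 ratio of 2.14 (-0.34 to 5.48). Both intervals include 0, so a difference was not detectable at this depth. In A20 cells, with 195 UMIs (6.01 CPM) under TAK-981 and 244 UMIs (4.60 CPM) under vehicle, the log2 ratio was 0.38 (0.10 to 0.66). Neighbours in the order of its 6 levels all had overlapping intervals.

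Parp12, a zinc finger enzyme that restricts RNA viruses when overexpressed in cell culture, was found almost wholly in host cells. Myeloid cells held 60 UMIs (165 CPM) with TAK-981 and 9 UMIs (16.9 CPM) with vehicle, a log2 ratio of 3.29 (2.27 to 4.49). T cells held 12 UMIs (27.0 CPM) with TAK-981 and 4 UMIs (4.64 CPM) with vehicle, a log2 ratio of 2.54 (0.82 to 4.63). Among 1754 TAK-981 A20 cells there were 2 UMIs (0.0616 CPM), and among 2191 vehicle A20 cells 2 UMIs (0.0377 CPM), each in a cell of its own. The upper ends of the A20 intervals, 0.223 and 0.136 CPM, lie below the lower end of every host interval, the smallest of which is 1.26 CPM in vehicle T cells. The A20 log2 ratio of 0.71 has an interval of -3.08 to 4.49, so no difference was detectable there at this depth. In order, the TAK-981 myeloid level stood clear of the TAK-981 T cell level, which overlapped the vehicle myeloid level.

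Parp8, among the least studied enzymes of the family, was under 2-fold apart in every class. It had 2 UMIs (4.50 CPM) in TAK-981 T cells and 6 UMIs (6.96 CPM) in vehicle T cells, a log2 ratio of -0.63 (-3.97 to 1.85). Of those 6 vehicle UMIs, 5 were in the 13 T cells that also held 5 or more UMIs of the B cell genes Cd79a, Cd79b, Jchain and Mzb1; without such cells 2 and 1 UMIs were left and the log2 ratio was 1.68 (-2.59 to 7.56). In myeloid cells there were 10 UMIs with TAK-981 (27.6 CPM) and 10 with vehicle (18.7 CPM), a log2 ratio of 0.56 (-0.86 to 1.98), and 2 of the TAK-981 and 4 of the vehicle UMIs were in the 2 cells of each library with such B cell UMIs. In A20 cells it had 770 UMIs (23.7 CPM) under TAK-981 and 1097 UMIs (20.7 CPM) under vehicle, a log2 ratio of 0.20 (0.06 to 0.33).

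**Figure D2:**
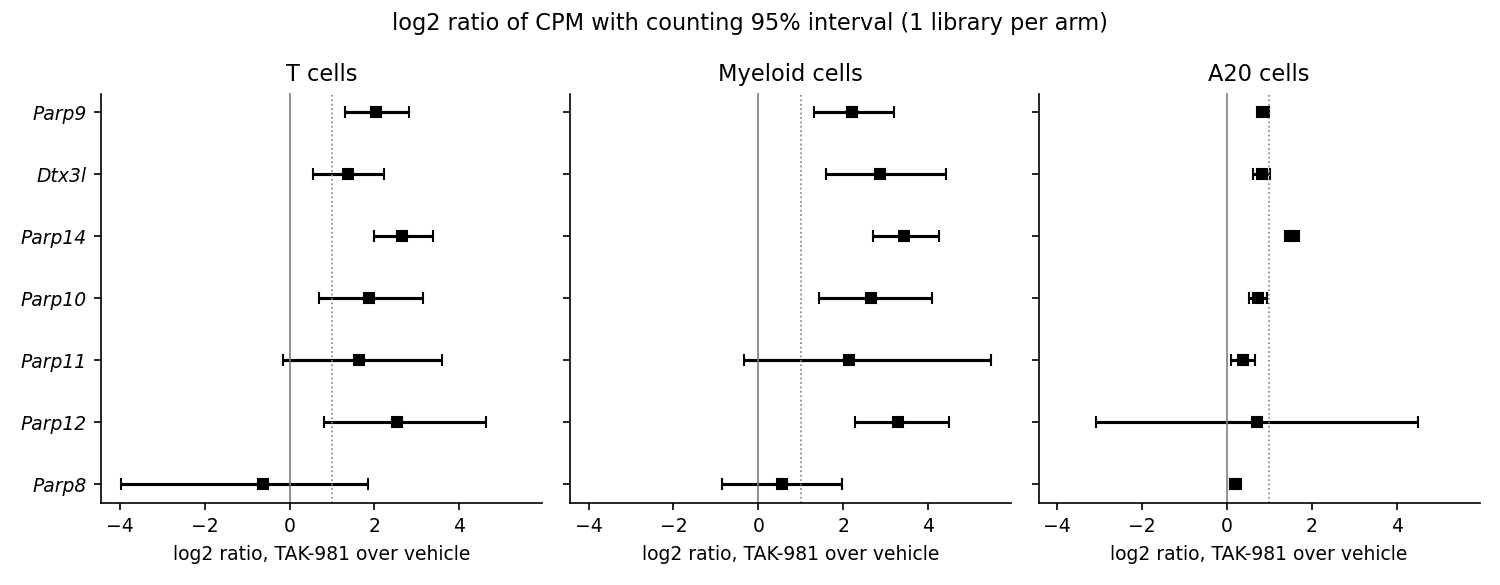
Log2 ratio of CPM, TAK-981 over vehicle (horizontal axis), of each gene in T, myeloid and A20 cells, with exact conditional binomial 95% intervals for counting error. The solid line marks no difference and the dotted line 2-fold; Parp14 lies to the right of the dotted line in all 3 classes, with log2 ratios of 2.66, 3.44 and 1.54.

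Because the TAK-981 cells were shallower, the share of cells with a UMI was also taken after drawing each cell down to 4000 UMIs. Parp14 was then seen in 56.4% (39.6% to 72.2%) of TAK-981 and 11.4% (3.79% to 24.6%) of vehicle myeloid cells, against 89.7% and 29.5% before. In T cells the shares at 4000 UMIs were 37.8% (23.8% to 53.5%) with TAK-981 and 13.3% (5.94% to 24.6%) with vehicle, against 57.8% and 33.3% before. In A20 cells they were 9.64% (8.29% to 11.1%) with TAK-981 and 3.88% (3.11% to 4.77%) with vehicle, against 26.0% and 17.0% before. At equal depth the share was higher with TAK-981 in all 3 classes, without overlap of the intervals in myeloid and A20 cells and with a narrow overlap in T cells. Parp12 was seen at 4000 UMIs in 35.9% (21.2% to 52.8%) of TAK-981 and 6.82% (1.43% to 18.7%) of vehicle myeloid cells, and in 0 of 1754 TAK-981 and 1 of 2191 vehicle A20 cells.

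The shares of the Parp9 and Dtx3l pair ran the same way. Parp9 was seen at 4000 UMIs in 42.2% of TAK-981 and 10.0% of vehicle T cells (57.8% and 25.0% before thinning), in 43.6% and 6.82% of myeloid cells (71.8% and 18.2% before), and in 10.5% and 6.66% of A20 cells (34.3% and 28.7% before). Dtx3l was seen in 35.6% of TAK-981 and 11.7% of vehicle T cells, in 35.9% and 9.09% of myeloid cells, and in 6.78% and 3.19% of A20 cells, against 46.7% and 25.0%, 51.3% and 11.4%, and 19.3% and 15.7% before. Parp10 stood at 20.0% with TAK-981 and 3.33% with vehicle in T cells, 25.6% and 4.55% in myeloid cells, and 4.68% and 2.88% in A20 cells. At 4000 UMIs the TAK-981 and vehicle intervals did not overlap for Parp9 in any class. They overlapped for Dtx3l and Parp10 in T and myeloid cells but not in A20 cells. At 1000 UMIs Dtx3l was seen in 4.44% of TAK-981 and 6.67% of vehicle T cells, the other way round. For Parp8 in A20 cells the order of the point values depended on depth: before thinning 30.2% with TAK-981 and 35.4% with vehicle carried it, and at 4000 UMIs 9.24% and 8.35% did. The intervals at 4000 UMIs, 7.92% to 10.7% and 7.23% to 9.59%, overlapped.

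Free RNA in droplets, or 2 cells in 1 droplet (a doublet), can put UMIs of a gene in cells that do not make it. Markers show the size of both together and cannot part them. Cd79a, made by the A20 cells, had a UMI in 10.3% of TAK-981 and 9.09% of vehicle myeloid cells, and the 7 B cell markers summed to 201 and 157 CPM there, against 3176 and 3043 CPM in A20 cells. In T cells Cd79a had a UMI in 20.0% of TAK-981 and 21.7% of vehicle cells, and the B cell markers summed to 679 and 1080 CPM, more in the vehicle library. The members' A20 levels are at most 26.8 CPM with TAK-981 and 20.7 CPM with vehicle. Cd14 had a UMI in 1 of 1754 TAK-981 and 2 of 2191 vehicle A20 cells. The A20 gate had already left out cells with a UMI of Lyz2 or the Cd3 genes. The Cd14 count therefore cannot show how much host RNA reached A20 cells. The part of free RNA and of doublets in the members' shares was not tested.

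At 4000 UMIs at least 1 of the 7 genes was seen in 94.9% (82.7% to 99.4%) of TAK-981 and 34.1% (20.5% to 49.9%) of vehicle myeloid cells. The same shares were 73.3% (58.1% to 85.4%) and 30.0% (18.8% to 43.2%) in T cells, and 33.6% (31.4% to 35.9%) and 23.3% (21.6% to 25.2%) in A20 cells. Before thinning they were 97.4% with TAK-981 and 68.2% with vehicle in myeloid cells, 84.4% and 56.7% in T cells, and 71.1% and 69.0% in A20 cells, which lose most UMIs per cell in thinning.

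**Figure D3:**
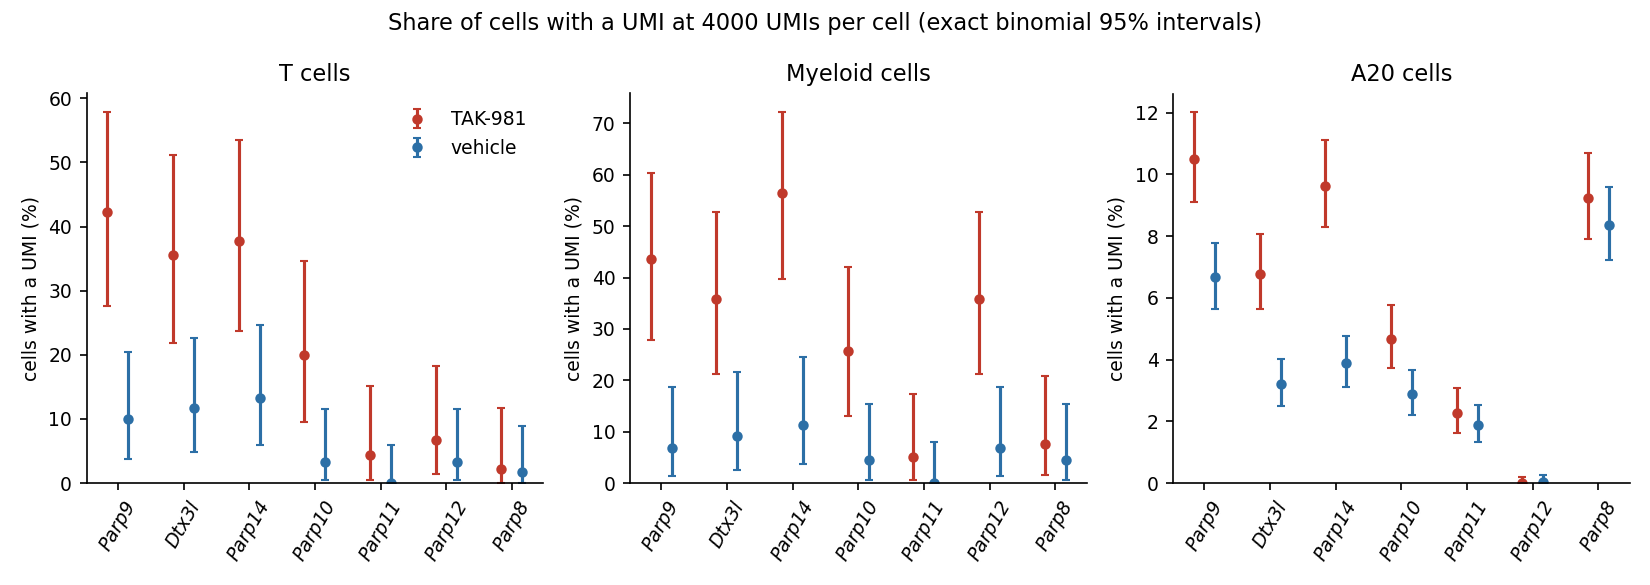
Share of cells with at least 1 UMI of each gene (vertical axis, percent, a scale of its own for each class) after every cell was drawn down to 4000 UMIs, TAK-981 red and left, vehicle blue and right. Bars are exact binomial 95% intervals; Parp12 lies at 35.9% of TAK-981 myeloid cells and at 0 of 1754 TAK-981 A20 cells.

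To see how far the members sat in the cells that carry other interferon-induced RNAs, cells at 4000 UMIs were divided by a UMI of any of 10 comparator genes: Isg15, Ifit1, Ifit2, Ifit3, Usp18, Rsad2, Mx1, Oasl1, Cmpk2 and Rtp4. Such cells made up 77.8% (35 of 45) of TAK-981 and 16.7% (10 of 60) of vehicle T cells, 94.9% (37 of 39) and 38.6% (17 of 44) of myeloid cells, and 15.5% (272 of 1754) and 2.88% (63 of 2191) of A20 cells. Within the TAK-981 A20 cells, Parp14 stood at 82.7 CPM (66.5 to 102) in cells with a comparator UMI and 18.4 CPM (15.1 to 22.2) in cells without, a log2 ratio of 2.17 (1.75 to 2.59). The ratio of cells with over cells without was 1.99 (1.35 to 2.62) for Parp10, 1.43 (0.86 to 1.98) for Dtx3l and 1.11 (0.65 to 1.55) for Parp9, all on the log2 scale. It was 0.44 (-0.14 to 0.98) for Parp8 and 0.17 (-1.25 to 1.36) for Parp11. In the A20 cells of the TAK-981 library, Parp14, Parp10, Dtx3l and Parp9 were thus denser in cells with comparator UMIs, and Parp8 and Parp11 differed by less than the counting error.

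Cells without a comparator UMI still differed between the libraries for part of the group. Among A20 cells without one, the TAK-981 over vehicle log2 ratio was 0.92 (0.49 to 1.34) for Parp14, 0.76 (0.29 to 1.23) for Dtx3l and 0.55 (0.21 to 0.89) for Parp9. It was 0.25 (-0.31 to 0.80) for Parp10, 0.29 (-0.42 to 0.98) for Parp11 and 0.06 (-0.26 to 0.38) for Parp8. A cell without a comparator UMI at this depth may still hold comparator RNA. In TAK-981 T cells 40 of 41 thinned Parp14 UMIs and 27 of 30 Parp9 UMIs were in the 35 cells with a comparator UMI, which are 77.8% of the class. The log2 ratio of cells with over cells without was 3.51 (0.95 to 8.85) for Parp14, on 1 UMI in cells without, and 1.36 (-0.34 to 3.73) for Parp9. In vehicle T cells 1 of 8 Parp14 UMIs and 2 of 7 Parp9 UMIs were in the 10 such cells. Dtx3l had 4 UMIs in these 10 cells and 3 in the vehicle T cells without, a log2 ratio of 2.74 (0.17 to 5.51). In TAK-981 T cells its log2 ratio was 1.36 (-0.70 to 4.51). The other members had at most 2 UMIs in vehicle T cells at this depth. In vehicle myeloid cells every member with UMIs had an interval across 0, and only 2 TAK-981 myeloid cells were without a comparator UMI. In vehicle A20 cells Parp14 had 10 UMIs (39.7 CPM) in the 63 cells with a comparator UMI and 83 UMIs (9.75 CPM) in the 2128 without, a log2 ratio of 2.02 (0.91 to 2.98). For the other members the vehicle A20 split had intervals across 0. The log2 ratio was 0.70 for Parp9 on 7 UMIs in cells with a comparator UMI and -1.52 for Parp8 on 2 UMIs. On 1 UMI each it was -1.09 for Dtx3l, -0.90 for Parp10 and -0.24 for Parp11. Parp12 had 0 UMIs in vehicle A20 cells with and 1 in cells without.

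**Figure D4:**
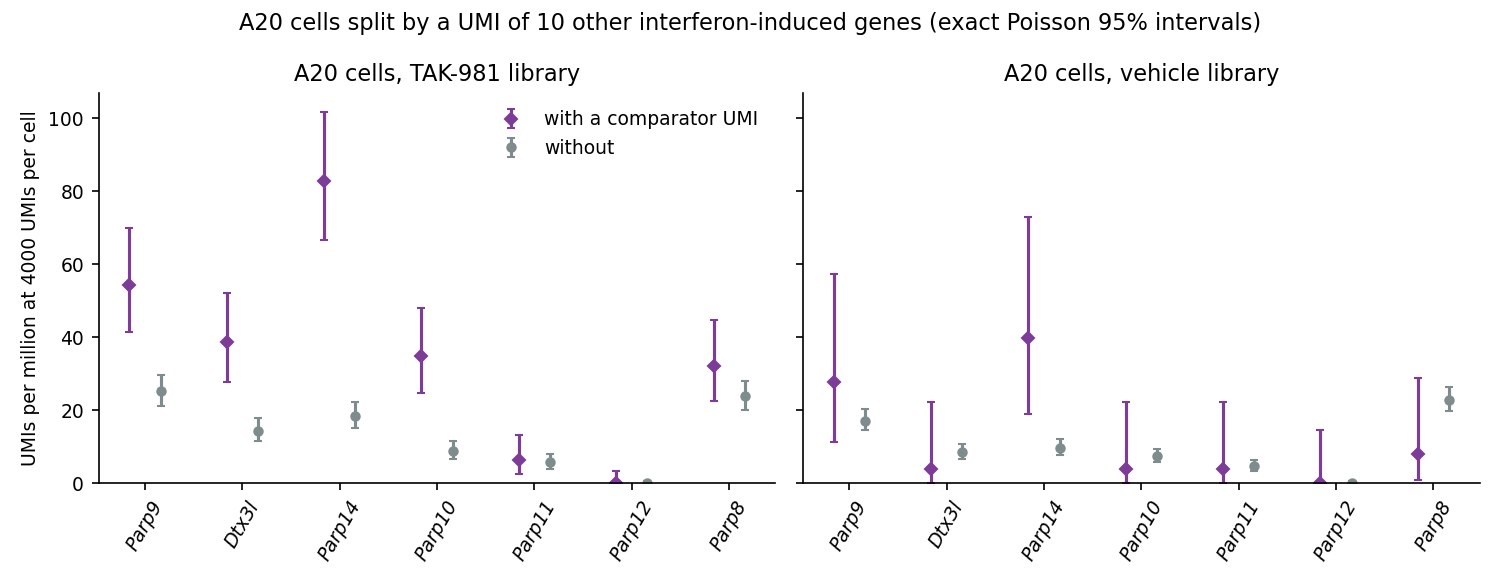
Level in CPM (vertical axis) of each gene in A20 cells drawn down to 4000 UMIs, with a UMI of 10 other interferon-induced genes (purple diamonds) and without (grey circles), for TAK-981 (left panel) and vehicle (right panel). Bars are exact Poisson 95% intervals; in the TAK-981 library Parp14 stands at 82.7 CPM in cells with and 18.4 CPM in cells without.

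T cells were divided by a UMI of the CD8 genes Cd8a or Cd8b1. Cells with one numbered 22 with TAK-981 and 37 with vehicle, and T cells without numbered 23 in each. All members but Parp8 passed 2-fold on both sides by point value. Only Parp14 and Parp9 had intervals above 0 on both sides. Parp14 had 32 and 16 UMIs in the cells with CD8, a log2 ratio of 2.35 (1.44 to 3.31), and 46 and 8 UMIs in the cells without, a log2 ratio of 3.02 (1.93 to 4.32). For Parp9 the log2 ratios were 1.93 (1.02 to 2.88) with CD8 and 2.50 (1.17 to 4.08) without, and for Dtx3l 1.59 (0.31 to 2.89) and 1.08 (-0.05 to 2.27). Of the 12 TAK-981 UMIs of Parp12 in T cells, 10 were in cells without a CD8 UMI. The 12 UMIs came from only 6 cells, 1 of which held 4, so a difference between the sides was not detectable.

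The makeup of the myeloid class differed between the libraries. No TAK-981 myeloid cell had a UMI of the macrophage genes C1qa, C1qb or C1qc, against 8 of 44 vehicle cells; 5 TAK-981 cells and 1 vehicle cell had 5 or more UMIs of the neutrophil markers, which summed to 212 and 48.7 CPM over 5 genes with Cxcr2 and Retnlg at 0 in both libraries. Without the 8 cells with a C1q UMI, the log2 ratios in myeloid cells were 3.50 (2.68 to 4.45) for Parp14, 3.56 (2.35 to 5.06) for Parp12, 2.89 (1.73 to 4.28) for Parp9, 2.82 (1.44 to 4.54) for both Dtx3l and Parp10, and 0.39 (-1.06 to 1.86) for Parp8. The 7 vehicle UMIs of Parp9 in these 8 cells are those of the single deep cell described above. Without the cells with neutrophil UMIs the log2 ratios were 3.28 (2.53 to 4.12) for Parp14 and 3.38 (2.35 to 4.58) for Parp12. The T class held B cell markers at 679 CPM with TAK-981 and 1080 CPM with vehicle, in 17 of 45 and 24 of 60 cells. It held monocyte and macrophage markers in 1 cell of each library and no neutrophil marker UMI. Natural killer cell markers were in 3 TAK-981 and 6 vehicle T cells. The dendritic cell markers summed to 445 and 736 CPM in T cells, nearly all from Ccr7, seen in 46.7% and 70.0% of them. How far this difference in Ccr7 bears on the members' ratios was not tested. Without T cells holding 5 or more B cell UMIs, the log2 ratios were 2.53 (1.76 to 3.37) for Parp14 and 2.71 (1.77 to 3.75) for Parp9, as 12 of the 24 vehicle UMIs of Parp9 were in the 13 vehicle cells left out.

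The rest of the ADP-ribosylation machinery was set beside the 7 genes by lists, counting genes with at least 10 UMIs in the 2 libraries together. Of all such genes, 6.32% were at least 2-fold higher and 9.32% at least 2-fold lower in T cells, 10.8% and 14.3% in myeloid cells, and 3.46% and 1.50% in A20 cells. Of the 10 other PARP genes, 8 were measured in T cells with none at least 2-fold higher or lower and a median log2 ratio of -0.10, and 10 in A20 cells with none higher or lower and a median of 0.03. In myeloid cells 6 were measured, 1 higher and 1 lower, with a median of -0.05.

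The higher one in myeloid cells was Zc3hav1, the antiviral protein ZAP that binds CpG-rich viral RNA. It had 77 UMIs (212 CPM) with TAK-981 and 45 UMIs (84.3 CPM) with vehicle, a log2 ratio of 1.33 (0.78 to 1.90). At 4000 UMIs per cell 0 of the other PARP genes measured were 2-fold higher in myeloid cells, so this call ends there. Its log2 ratios were 0.83 (0.40 to 1.26) in T cells and 0.29 (0.21 to 0.36) in A20 cells. The lower one was Parp1, which builds ADP-ribose chains at DNA breaks, with 6 UMIs in TAK-981 and 21 UMIs in vehicle myeloid cells and a log2 ratio of -1.25 (-2.85 to 0.11). Parp1 stood at -0.19 (-0.87 to 0.47) in T cells and -0.15 (-0.21 to -0.09) in A20 cells.

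Genes that remove ADP-ribose (such as Parg and Adprh) had 1 of 6 measured genes at least 2-fold higher in T cells, 0 of 4 in myeloid cells and 0 of 7 in A20 cells. That gene was Nudt16 at 1.08 (-0.23 to 2.40), which was also the 1 gene 2-fold lower in myeloid cells at -1.32 (-3.80 to 0.60). Among the other deltex ligases and Rnf146, 0 of 3 were 2-fold higher in T cells and 0 of 5 in A20 cells, and in myeloid cells 1 of 2 was, Rnf146 at 1.41 (-0.33 to 3.33). Genes of NAD supply and use had 2 of 5 higher and 1 lower in T cells, 0 of 2 in myeloid cells and 0 of 7 in A20 cells. In T cells Nampt, the rate-limiting enzyme of NAD salvage, had 42 UMIs (94.4 CPM) with TAK-981 and 21 UMIs (24.3 CPM) with vehicle, a log2 ratio of 1.96 (1.17 to 2.79). It stood at 0.68 (0.13 to 1.24) in myeloid cells and 0.20 (0.12 to 0.28) in A20 cells. The others past 2-fold in T cells were Cd38, an enzyme that breaks down NAD, at 1.22 (-0.12 to 2.59) and Nmnat3 at -1.04 (-3.51 to 0.85). Nudt16, Rnf146, Cd38 and Nmnat3 have intervals across 0 and were named after their values were seen.

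Of the genes of type I interferon signalling, Stat2 had log2 ratios of 1.88 (0.71 to 3.15) in T, 2.71 (1.75 to 3.81) in myeloid and 1.05 (0.85 to 1.25) in A20 cells. Irf9, which works with Stat2, had log2 ratios of 1.35 (0.50 to 2.22) in T, 0.68 (-0.03 to 1.38) in myeloid and 1.78 (1.63 to 1.94) in A20 cells. Tyk2, a kinase of the interferon receptor, stood at 1.41 (-0.33 to 3.33) in myeloid cells and was also named after its value was seen. Of 20 comparator interferon-induced genes, 17 were measured in T cells and 17 were at least 2-fold higher with a median log2 ratio of 3.96; in myeloid cells 20 of 20 were, with a median of 4.38, and in A20 cells 14 of 16, with a median of 2.64. Isg15 had 496 UMIs in TAK-981 and 17 UMIs in vehicle T cells, a log2 ratio of 5.82 (5.13 to 6.61), with 4.32 (4.02 to 4.64) in myeloid and 3.43 (3.24 to 3.64) in A20 cells. Genes with 0 vehicle UMIs entered these medians at their lower bound. The median of the 7 genes lies below that of the comparators in each class.

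**Figure D5:**
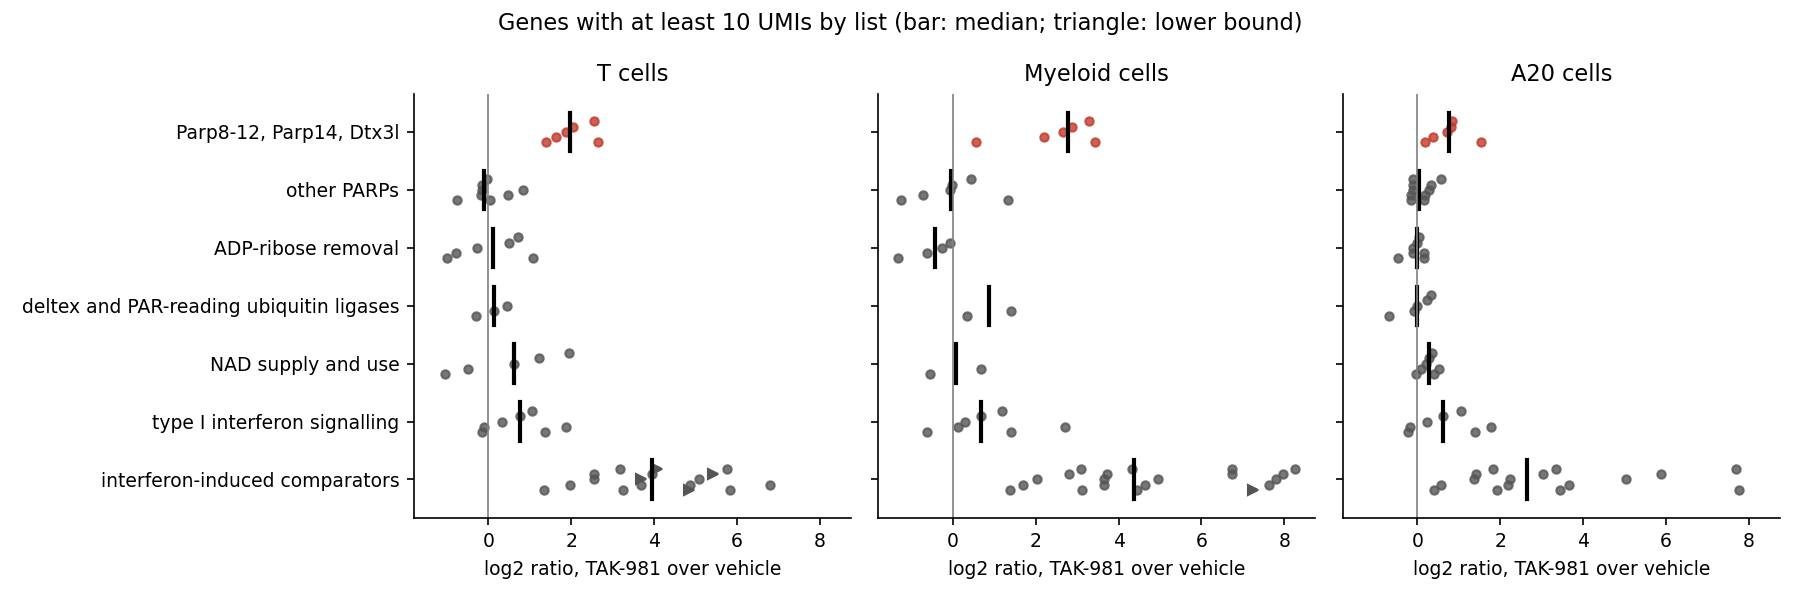
Log2 ratios (horizontal axis, TAK-981 over vehicle) of genes with at least 10 UMIs in T, myeloid and A20 cells, by list (rows). Points are genes, bars are list medians and triangles are lower bounds for genes with 0 vehicle UMIs. In each class 6 of the 7 described genes have 10 UMIs, but not the same 6. The gene left out is Parp8 in T, Parp11 in myeloid and Parp12 in A20 cells. The comparators have medians of 3.96, 4.38 and 2.64.

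Genes that lie next to the members were read by their order in RefSeq (GRCm38.p6). On chromosome 16 the order is Hspbap1, Parp14, Dtx3l, Parp9, Kpna1. Kpna1, a nuclear import receptor, had 896 UMIs in TAK-981 and 1460 UMIs in vehicle A20 cells, a log2 ratio of 0.00 (-0.12 to 0.12), and stood at 0.56 (-0.79 to 1.90) in myeloid and -1.45 (-2.86 to -0.26) in T cells. Hspbap1 had a log2 ratio of 0.56 (0.33 to 0.79) in A20 cells and at most 2 UMIs in any host class of either library. The 3 adjacent members thus lie between neighbours with smaller point values of the A20 ratio than theirs. Grina, beyond Parp10, stood at 0.35 in T, 0.64 in myeloid and -0.16 in A20 cells. Ccnd2, the cyclin D2 gene beside Parp11, stood at 1.13 (0.71 to 1.55) in T, 1.56 (0.58 to 2.60) in myeloid and 0.27 (-0.64 to 1.16) in A20 cells, while Cracr2a on the other side had at most 4 UMIs. Beside Parp12, Kdm7a stood at 0.25, 0.89 and 0.32, and Tbxas1 at 0.50 (-0.33 to 1.33) in myeloid cells with at most 1 UMI in the other classes. Beside Parp8, Emb stood at 0.42, 0.57 and -0.24, and Isl1 had 0 UMIs.

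The genes whose 3 log2 ratios were closest to each member, among 3795 genes with at least 20 UMIs in every class, were named by the root mean square difference over the 3 classes. For Parp14 these were Irgm2 at 0.15, Tgtp2 at 0.17 and Ifih1 at 0.21. For Parp9 they were Usp25 at 0.14, Ly6c1 at 0.23 and Gbp4 at 0.25, for Dtx3l Sp110 at 0.24, Sp100 at 0.25 and Epsti1 at 0.31, and for Parp10 Epsti1 at 0.16, Usp25 at 0.19 and Stat2 at 0.19. Parp12 was nearest to Ube2l6 at 0.30, Trafd1 at 0.39 and Daxx at 0.40, which rests on its 4 UMIs in A20 cells. Parp11, with 8 UMIs in myeloid cells, was nearest to Ly6c1 at 0.20, Helz2 at 0.23 and Ly6c2 at 0.24. Parp8, with 8 UMIs in T cells, was nearest to Tnpo1 at 0.0070, Senp2 at 0.041 and Stx5a at 0.047. Each likeness is taken over 3 values from the same 2 libraries and is a description.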

How the data were processed

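The 10x 5′ single-cell matrices were deposited by the authors as raw UMI counts per gene and barcode. Cell Ranger 2.1.1 and Seurat 2 are named in the submitters' processing notes; the genome build, the annotation and the use of strand are not stated in them. Of the 28692 gene IDs, 28339 are in GENCODE M21, which was used for overlaps.

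Cells were gated by UMI counts. Doublets were not called. No cell met both host gates, but each host class held at most 2.33% of a library's barcodes. That absence therefore cannot show how common doublets were. Host cells with 5 or more B cell UMIs were also left out as an alternative. UMIs were summed per class and library and divided by the class total and scaled to 1000000 (CPM). Levels have exact Poisson, ratios exact conditional binomial and shares exact Clopper-Pearson 95% intervals, for counting error only. A fold against 0 UMIs used a floor of 3 counts over the class. No p-value was computed. Thinning drew UMIs without replacement to 4000 or 1000 per cell, and no cell had fewer than 4000. The ratio code was tested on simulated data. Scripts ran on Python 3.11.15 with pandas 2.3.3, numpy 2.4.6 and scipy 1.17.1, and plots were drawn with matplotlib 3.10.9.

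Members and lists were chosen with earlier results of these data known. Genes were named if members, list genes at least 2-fold apart with an interval on 1 side of 0, set reference genes (Parp1, Zc3hav1, Stat2, Irf9, Isg15; another is not reported here), neighbours by position, or the 3 genes nearest to each member. The TTCNNNGAA motif and the alternatives without shared barcodes, without C1q cells and without cells with neutrophil UMIs were added after the data were seen.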

Additional observations from a re-analysis of the deposited data

Results flagged for a closer look

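Cells outside the compared classes were read as well. In the 182 TAK-981 and 160 vehicle cells that met none of the gates, the log2 ratio (TAK-981 over vehicle) was 2.34 (1.51 to 3.25) for Parp14, with 67 TAK-981 UMIs and 15 vehicle UMIs. In the same cells it was 1.10 (0.49 to 1.72) for Parp9, 1.07 (0.24 to 1.93) for Dtx3l and 0.68 (0.01 to 1.35) for Parp8. Parp10 stood at 0.64 (-0.36 to 1.66) and Parp11 at -0.41 (-1.90 to 1.01), both with intervals across 0, and Parp12 had 2 UMIs with TAK-981 and 0 with vehicle. B cell UMIs, 5 or more per cell, were found in 121 of the TAK-981 and 131 of the vehicle cells of this set.

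In the barcodes with a mitochondrial share of 10% or more, 376 with TAK-981 and 124 with vehicle, the log2 ratios were 1.32 (0.23 to 2.61) for Dtx3l, 1.06 (0.11 to 2.14) for Parp10, 0.64 (0.00 to 1.32) for Parp14 and 0.59 (0.09 to 1.11) for Parp9. Parp11 at 0.18 (-0.74 to 1.18) and Parp8 at 0.01 (-0.50 to 0.55) had intervals across 0, and Parp12 had 0 UMIs in both libraries. Median depth in these barcodes was 5801 UMIs with TAK-981 and 7486.5 UMIs with vehicle. Of these barcodes, 275 with TAK-981 and 88 with vehicle met the A20 gate, and there every member with UMIs had an interval across 0. The values there were 1.23 (-0.03 to 2.77) for Dtx3l, 0.94 (-0.18 to 2.25) for Parp10 and 0.76 (-0.05 to 1.64) for Parp14. Parp9 stood at 0.20 (-0.35 to 0.77), Parp8 at 0.31 (-0.31 to 0.96) and Parp11 at -0.02 (-1.20 to 1.28).

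The point values of the Parp8 log2 ratio have unlike signs, -0.63 (-3.97 to 1.85) in T, 0.56 (-0.86 to 1.98) in myeloid and 0.20 (0.06 to 0.33) in A20 cells, with intervals across 0 in both host classes. The log2 ratio in T cells minus that in myeloid cells was -1.19, and minus that in A20 cells -0.83. The difference was not tested, the T cell value rests on 2 TAK-981 and 6 vehicle UMIs, and the sign in T cells turns without cells holding B cell UMIs and at 4000 UMIs per cell, where the log2 ratio was 0.42.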

How the results depend on the processing

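No paired analysis was possible because each arm is 1 library, and no replicate could be left out. Of 235 log2 ratios of members under 15 other settings, 35 could not change because no cell was removed or added; of the other 200, 189 stayed within the counting interval of the reported value. Parp8 in T cells, whose interval includes 0, was above 0 in 3 of 11 settings, from -1.39 to 1.68. At 4000 UMIs per cell 2 members, Parp14 and Dtx3l (log2 ratio 1.12), were at least 2-fold higher in A20 cells. At 1000 UMIs per cell the counts at least 2-fold higher were 2 in T, 3 in myeloid and 2 in A20 cells (Parp14 and Parp9), the T cell median was 3.22, Dtx3l in T cells turned to -0.91 and Parp11 in A20 cells stood at -0.96; few UMIs are left at that depth. With at least 50 UMIs required, 3 members were higher in T and 3 in myeloid cells, since fewer genes are counted. Without host cells with B cell UMIs all 7 were at least 2-fold higher in T cells and in myeloid cells. Parp8 stood at 1.68 (-2.59 to 7.56) on 3 UMIs in T cells and at 1.01 (-0.71 to 2.81) in myeloid cells. For Parp11 the intervals also crossed 0, at -0.22 to 3.86 in T and -0.31 to 5.52 in myeloid cells. No share of all genes was set beside the counts under these other settings. Parp9 in myeloid cells was 3.01 without its top cells. At 4000 UMIs per cell 1 of the other PARP genes was 2-fold higher in T cells and 0 in myeloid cells. Parp14 had the highest ratio of the members as reported, with overlapping intervals in host cells, and the order changed with the setting. At 4000 UMIs Parp12 (3.23) and Parp9 (2.91) exceeded Parp14 (2.76) in myeloid cells, and Parp10 did in T cells (2.87 against 2.77). In myeloid cells Parp12 also led with a mitochondrial share under 5%, with stricter cell gates, and without cells holding C1q or neutrophil UMIs. Without host cells with B cell UMIs, Dtx3l led in myeloid cells (3.86 against 3.40) and Parp9 in T cells (2.71 against 2.53). In A20 cells Parp9 led at 1000 UMIs (1.42 against 1.38). The log2 scaling by median of ratios moved all values by 0.06 or less. Host cells number 39 to 60 per class and library, so members with under 10 UMIs can show only large differences.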
